A study of Homo sapiens with 2 samples.

Results

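The genes described here encode the machinery that marks DNA replication origins, loads and starts the replicative helicase, and copies DNA at the fork. They were taken by name from the deposited FPKM table, which holds 58735 genes, and all 49 of 49 names were found. Expression had been measured by RNA sequencing in U87MG, an established human glioblastoma line, cultured as glioma spheres in stem cell conditions for a week. Both groups carried a lentivirus and puromycin selection: the control group carried pGIPZ-CTRL and the other group an shRNA against TRIP13, an ATPase of the spindle checkpoint. Each group held 1 library, and neither the number of clones behind a library nor their passage is given in the sources used here. Every difference is therefore one between 2 libraries: without replicates there is no error between cultures to set it against, and nothing was tested.

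TRIP13 itself stood at 23.1 FPKM where its shRNA was labelled and at 11.9 FPKM in the control, an FPKM ratio of 1.95 (95% counting interval 1.79 to 2.12). This goes against the label, so the former is named by its label throughout (the library labelled TRIP13 shRNA) and each direction is a direction between libraries as labelled. The totals recovered from the values were 19903836 reads for that library and 18871063 for the control, a depth ratio of 1.05 that the FPKM values do not correct. Of 7 glioma and neural stem markers, 3 reached 1 FPKM in both libraries, namely VIM (427 against 442 FPKM, giving the library labelled TRIP13 shRNA first here and below), CD44 (112 against 115) and NES (2.21 against 5.23, ratio 0.423). OLIG2 stood at 0.339 against 2.72 FPKM (ratio 0.124) and GFAP at 0.119 against 0.392 (28 against 92 reads, ratio 0.304), while SOX2 had 1 and 2 reads and PROM1 1 and 5. The 4 proliferation markers summed to 317 against 188 FPKM, with MKI67 at 53.3 against 27.4 FPKM. Fibroblast markers summed to 31.3 against 50.9 FPKM (3 of 4 at 1 FPKM in both), of which COL1A1 made up 27.4 and 29.4. The other 3 differed far more: PDGFRB stood at 1.74 against 12.4 FPKM (ratio 0.141), LUM at 2.08 against 7.55 (ratio 0.275) and DCN at 0.133 against 1.55 (ratio 0.0855). Immune markers summed to 3.47 against 4.11 FPKM (1 of 4 at 1 FPKM in both) and endothelial markers to 0.0364 against 0.723 (0 of 3). The part of these marker differences in the results below was not tested. In bulk RNA, more cells in the replicating part of the cycle and more RNA of these genes per cell cannot be told apart.

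As background, replication is prepared in G1, when the origin recognition complex (ORC) with CDC6 and CDT1 loads pairs of MCM2 to MCM7 rings on DNA. In S phase the CDC7-DBF4 kinase and further factors add CDC45 and the GINS complex, which turns the ring into a moving helicase. Polymerase alpha-primase lays primers, polymerases epsilon and delta extend them on the sliding clamp PCNA that the RFC complex loads, and FEN1 and LIG1 join the Okazaki fragments. Many of these genes are known targets of E2F transcription factors, which switch on as cells commit to S phase.

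Promoter windows are shown because the members lay on the same side on the deposited scale (ORC2, RFC1 and RPA3 excepted with own totals). RefSeq windows of 300 bases, from 250 before to 50 after the first start listed for a gene, were found for 43 of the 49 members; MCM4, MCM5, GINS4, POLD3, RPA2 and RPA3 had none. An E2F word was searched on both strands as any of TTTCCCGC, TTTCGCGC, TTTGCCGC and TTTGGCGC, which can overlap each other where a word runs into its own complement. At least 1 such word lay in 19 of the 43 windows (44.2%), against 908 of 27305 windows of all genes (3.33%) and 484 of 8569 windows of the compared genes (5.65%). Counting every listed start, 22 of 56 member windows (39.3%) and 3.31% of 35116 windows held one. Of 25 E2F words in the members, with overlapping words on both strands each counted, 19 began within 100 bases of the start.

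The windows below are those of the members with the highest log2 ratios, CLSPN and GINS2, of the lowest with a window, RFC1 and ORC2, and of MCM6, added after the counts were seen because it held the most E2F words. They are RefSeq sequences of GRCh38.p14, 5′ to 3′ on the gene's strand, with E2F words in capitals. CLSPN lies at chr1:35769929-35770228, GINS2 at chr16:85688905-85689204, MCM6 at chr2:135876394-135876693, RFC1 at chr4:39366313-39366612 and ORC2 at chr2:200963611-200963910, each on the minus strand.
CLSPN: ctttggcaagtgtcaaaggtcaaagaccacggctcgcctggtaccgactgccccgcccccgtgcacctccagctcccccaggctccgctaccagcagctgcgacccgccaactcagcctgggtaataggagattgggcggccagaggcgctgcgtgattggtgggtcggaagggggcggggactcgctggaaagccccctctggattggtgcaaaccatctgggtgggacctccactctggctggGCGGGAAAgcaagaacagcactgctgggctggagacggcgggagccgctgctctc
GINS2: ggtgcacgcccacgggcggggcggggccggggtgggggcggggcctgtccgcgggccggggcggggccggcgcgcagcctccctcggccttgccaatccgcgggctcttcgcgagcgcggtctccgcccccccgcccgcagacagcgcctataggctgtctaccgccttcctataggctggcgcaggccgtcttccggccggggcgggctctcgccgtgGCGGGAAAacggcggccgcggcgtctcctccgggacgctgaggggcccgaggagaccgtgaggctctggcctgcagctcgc
MCM6: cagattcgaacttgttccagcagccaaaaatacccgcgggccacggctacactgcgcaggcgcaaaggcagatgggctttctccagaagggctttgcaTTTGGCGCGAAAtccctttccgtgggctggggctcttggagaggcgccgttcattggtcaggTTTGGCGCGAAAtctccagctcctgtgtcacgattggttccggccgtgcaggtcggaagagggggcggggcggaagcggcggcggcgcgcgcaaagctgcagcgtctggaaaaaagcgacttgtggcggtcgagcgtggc
RFC1: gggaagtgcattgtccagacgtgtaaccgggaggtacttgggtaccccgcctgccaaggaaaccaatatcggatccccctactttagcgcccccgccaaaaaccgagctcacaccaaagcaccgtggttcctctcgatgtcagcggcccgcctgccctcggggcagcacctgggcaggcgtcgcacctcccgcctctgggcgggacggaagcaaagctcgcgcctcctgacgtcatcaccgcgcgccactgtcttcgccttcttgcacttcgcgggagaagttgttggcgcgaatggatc
ORC2: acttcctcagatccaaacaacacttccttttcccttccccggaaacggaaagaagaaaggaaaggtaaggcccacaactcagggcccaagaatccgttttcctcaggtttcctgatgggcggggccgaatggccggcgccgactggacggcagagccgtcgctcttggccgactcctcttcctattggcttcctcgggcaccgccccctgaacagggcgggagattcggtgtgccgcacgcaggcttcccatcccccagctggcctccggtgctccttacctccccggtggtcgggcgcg

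CLSPN and GINS2 each held 1 E2F word, both reading GCGGGAAA on the printed strand, while RFC1 and ORC2 held none in this window. MCM6 held 4, in 2 copies of the 12-letter run TTTGGCGCGAAA, each of which reads as an E2F word on either strand. It thus held the most words only with both strands counted. MCM3 also held words at separate places, -174 and -4 from the start, and MCM7 at -187 and -9. By complex, a word lay in 4 of 4 MCM2 to MCM7 windows (MCM2, MCM3, MCM6 and MCM7), 3 of 4 of CDC45 and GINS, 2 of 3 of the loading factors, 2 of 3 of polymerase epsilon and 2 of 3 of PCNA, FEN1 and LIG1. It lay in 2 of 4 windows of polymerase alpha-primase, 1 of 2 of MCM8 and MCM10, 1 of 4 of fork protection, 1 of 5 of RFC (RFC3) and 1 of 6 of ORC (ORC3). The firing kinase (2 windows), polymerase delta (2) and RPA (1) held none, and with 1 to 6 windows each no difference between complexes was tested. The median log2 ratio was 0.94 for the 19 members with an E2F word and 0.84 for the 24 without, and 9 and 8 of them were at least 2-fold higher on the deposited scale. With the median ratio of all genes set to 1, MCM2, MCM3, MCM6, CDC6 and CDT1 of those with a word no longer passed. Nor did GMNN, RFC2 and TIMELESS of those without, so the counts of this split depend on the scaling. A CCAAT box, searched as CCAAT on both strands, lay in 24 of 43 member windows (55.8%) against 35.7% of all and 36.6% of the compared genes' windows. Split by this box, the median log2 ratio was 0.99 for the 24 members with it and 0.84 for the 19 without. Of these, 12 and 5 were at least 2-fold higher on the deposited scale, a wider split than that by E2F word. With that median scaling MCM3, MCM6, CDC6 and TIMELESS, with the box, and MCM2, CDT1, GMNN and RFC2, without it, no longer passed. The CHR element TTTGAA lay in 1 of 43 (2.33%), that of DBF4, against 15.4% of all and 9.62% of the compared genes' windows. A word is a description of these letters, not a bound site, and its part in the expression differences was not tested.

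All 49 replication genes were higher in the library labelled TRIP13 shRNA on the deposited scale, although ORC2, RFC1 and RPA3 lay below 0 (log2) once each library was divided by its own total. Their FPKM ratios ran from 1.0 for RPA3 to 3.74 for the checkpoint mediator CLSPN, with a median of 1.97. Levels ran from 1.20 to 50.6 FPKM with a median of 7.93 in the control library, and from 2.60 to 111 with a median of 12.8 in the other. Together the members took 0.439% of the reads there and 0.250% of the control reads. Divided by own totals, that share was 1.76 times as large (95% counting interval 1.74 to 1.78). The most abundant member was PCNA, at 111 FPKM, in the library labelled TRIP13 shRNA, and POLD2, at 50.6 FPKM, among control values.

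For counts, the log2 ratio is that of FPKM plus 1, labelled TRIP13 shRNA over control, and a gene is counted as at least 2-fold higher or lower at 1 or -1. All 49 members reached 1 FPKM in both libraries, so none entered the 10671 compared protein-coding genes (mean FPKM of 1 or more) through a single library. Of the members, 17 were at least 2-fold higher, against 2.17% of all compared genes, and 0 were at least 2-fold lower against 4.19%. A log2 ratio above 0 was found for 49 of 49 members (46 with own totals) and 60.2% of compared genes (55.0% with own totals). With the median ratio of all genes set to 1 the count of members was 9 (1.30% of all genes), and with a pseudocount of 5 FPKM it was 4 (0.600% of all genes). The 8 members that passed on the deposited scale and not with that median scaling were CDC6, CDT1, GMNN, MCM2, MCM3, MCM6, RFC2 and TIMELESS. Over all compared genes 232 were at least 2-fold higher and 447 lower, against 139 and 568 with that median scaling. As TPM, more genes passed the filter: of 12183, 277 were higher (2.27%) and 956 lower (7.85%). The member median was 0.87 and the median of all compared genes 0.12. CDT1 lay just inside the 2-fold rule at 1.001 and POLE3 just outside at 0.995. The added 1 FPKM shrinks weak genes: 24 members had an FPKM ratio of 2 or more, against 4.12% of all genes without a pseudocount, and 7 of these missed the rule. The counting interval lay above the depth ratio for 46 of 49 members against 43.2% of compared genes, and below it for 0 against 34%. The exceptions, whose intervals included the depth ratio, were ORC2, RFC1 and RPA3.

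**Figure D1:**
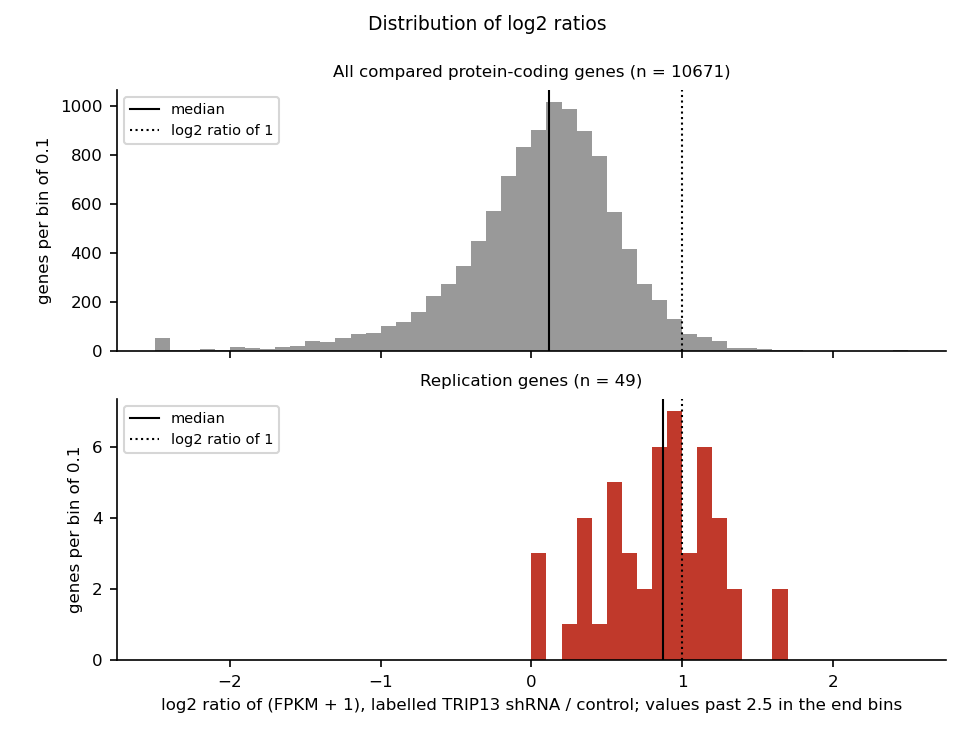
Number of genes per bin of 0.1 of the log2 ratio of (FPKM + 1), library labelled TRIP13 shRNA over control, for the 10671 compared protein-coding genes (top) and the 49 replication genes (bottom). The solid line is the median (0.12 and 0.87), the dotted line a log2 ratio of 1, and values past 2.5 sit in the end bins; no replication gene lies below 0 on this scale, while ORC2, RFC1 and RPA3 do with own totals.

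**Figure D2:**
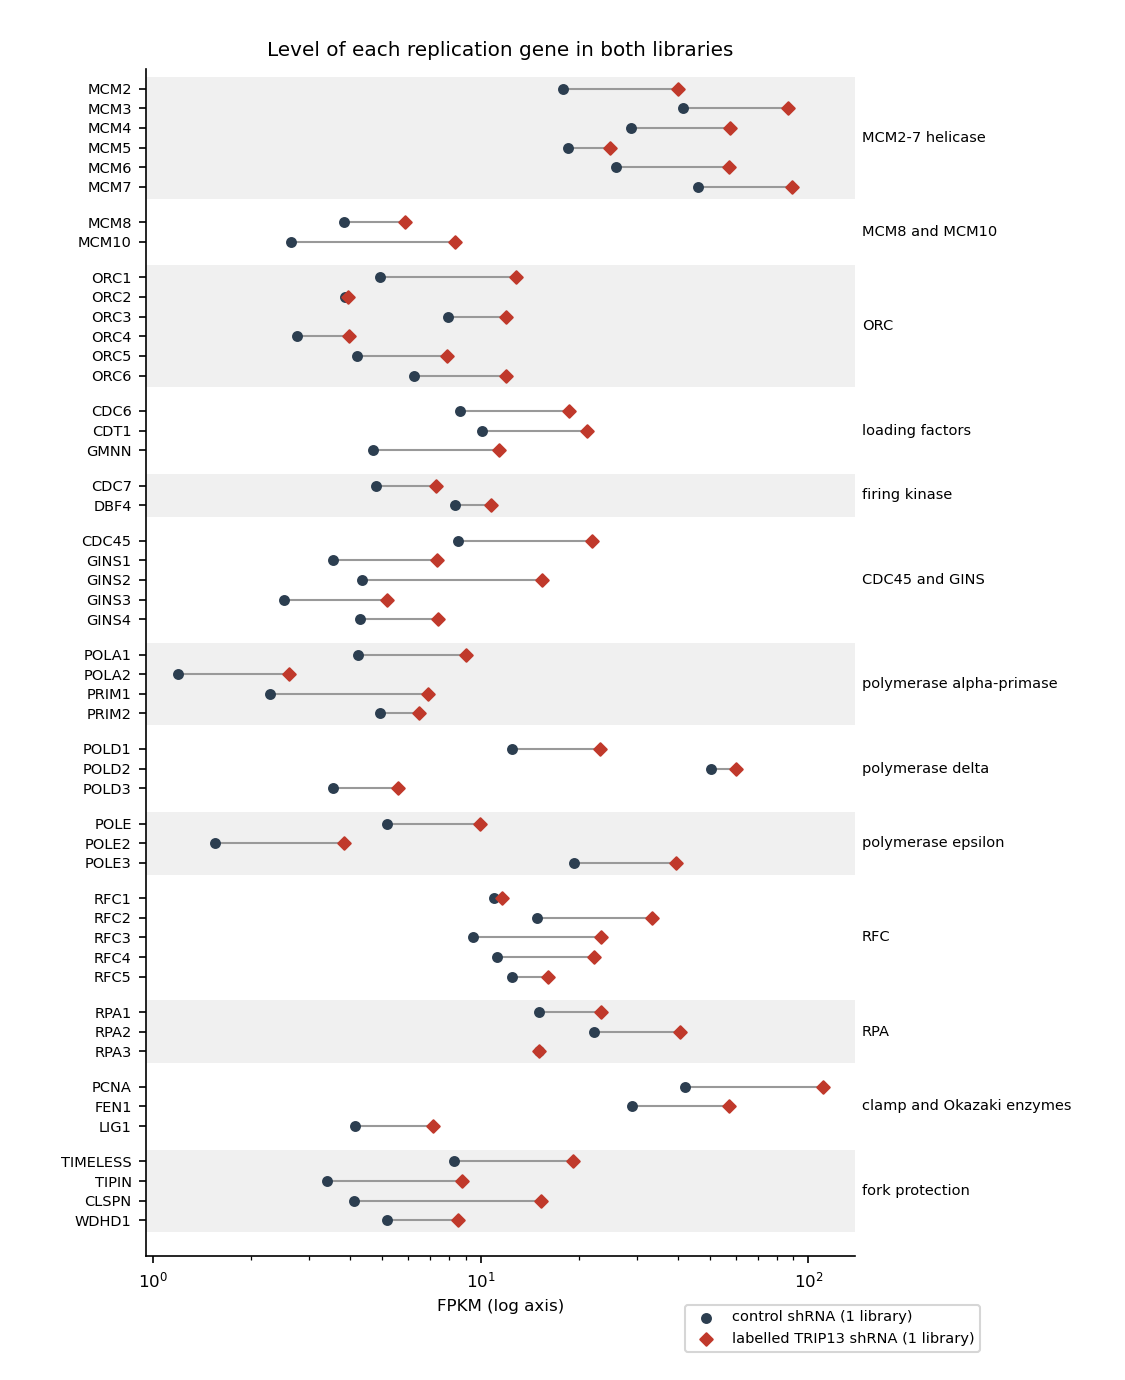
FPKM (log axis) of each replication gene in the control library (circles) and in the library labelled TRIP13 shRNA (diamonds), 1 library each, grouped by complex. The grey line joins both values; the diamond lies to the right of the circle, which it covers for RPA3, and the gap is smallest for RPA3, ORC2 and RFC1, which change sides with own totals.

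ORC, the platform of 6 subunits that marks origins, was the most uneven of the loading steps. ORC1, the subunit whose amount is known to follow the cell cycle, stood at 12.8 against 4.95 FPKM, an FPKM ratio of 2.59 (2.27 to 2.97). ORC2, a core subunit, stood at 3.94 against 3.86 FPKM (ratio 1.02, 0.892 to 1.17). The control library thus held ORC1 at 1.28 times the FPKM of ORC2 and the other library at 3.26 times. ORC6 (12 against 6.27 FPKM) and ORC5 (7.91 against 4.21) were near 1.9-fold, while ORC3 (11.9 against 7.93) and ORC4 (3.96 against 2.76) were near 1.5-fold. Of 15 pairs of subunits, 12 had counting intervals of the FPKM ratio that did not overlap, a comparison that no scaling of the libraries affects. By the size rule, 1 of the 6, ORC1, was at least 2-fold higher, and the ORC median log2 ratio was 0.65.

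CDC6, the ATPase that recruits the helicase to ORC, stood at 18.7 against 8.64 FPKM, and CDT1, which carries the MCM ring, at 21.2 against 10.1 FPKM. GMNN (geminin), the inhibitor of CDT1 that blocks a further round of loading, stood at 11.4 against 4.71 FPKM. All 3 passed the 2-fold rule, with FPKM ratios of 2.16, 2.10 and 2.41 and with intervals that overlapped in all 3 pairs. With own totals only GMNN passed (log2 ratio 1.05, against 0.96 for CDC6 and 0.93 for CDT1), and with the median ratio of 1 none of the 3 did (0.99 for GMNN, 0.90 for CDC6 and 0.87 for CDT1). CDT1 was 2.14 times the FPKM of its inhibitor in the control library and 1.87 times in the other.

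The MCM2 to MCM7 helicase was the most abundant of the complexes, with summed FPKM of 356 against 178. MCM7 (88.9 against 46.0 FPKM) and MCM3 (86.9 against 41.5) had the highest levels of the 6 in both libraries. MCM2 (40.1 against 17.9 FPKM, ratio 2.25, 2.12 to 2.38), MCM6 (57.3 against 25.8, ratio 2.22) and MCM3 (ratio 2.09) passed the 2-fold rule on the deposited scale, and none of them with the median ratio of 1 (log2 ratios of 0.99, 0.98 and 0.91). MCM4, at 57.8 against 28.8 FPKM, had a log2 ratio of 0.98 and MCM7 one of 0.94. MCM5 stood apart at 24.9 against 18.4 FPKM (ratio 1.35, 1.28 to 1.42), below the intervals of the other 5 subunits. The level of MCM6 was 1.40 times that of MCM5 in the control library and 2.31 times in the other. The subunits act in equal numbers in the ring, but their FPKM spanned 2.58-fold in the control library and 3.58-fold in the library labelled TRIP13 shRNA. For MCM2, 23.6% of the exon length is shared with AC023593.1 on the opposite strand, where reads cannot be assigned without strand.

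The kinase that triggers firing differed less than most. Its catalytic subunit CDC7 stood at 7.34 against 4.82 FPKM (ratio 1.52, 1.32 to 1.76), and its activator DBF4 at 10.8 against 8.35 (ratio 1.29, 1.17 to 1.42). Neither passed the 2-fold rule. The helicase partners were further apart. CDC45 stood at 21.9 against 8.54 FPKM (ratio 2.56, 2.30 to 2.85), and MCM10, which helps activate the loaded helicase, at 8.35 against 2.64 (ratio 3.16, 2.76 to 3.63). MCM8, an MCM relative known for a role in recombination, stood at 5.86 against 3.84 FPKM, a ratio of 1.53.

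The 4 GINS subunits, which form a complex with 1 copy of each, did not share a ratio. GINS2 stood at 15.4 against 4.35 FPKM, the second highest ratio of all members at 3.55 (3.10 to 4.07), and only 22 of the 10671 compared genes had a higher log2 ratio. GINS1 (7.34 against 3.55 FPKM) and GINS3 (5.19 against 2.52) had ratios of 2.07 and 2.06, and GINS4 (7.41 against 4.29) one of 1.73 (1.54 to 1.94). The intervals of these 3 overlapped each other, and that of GINS2 lay above them. In the control library GINS2 and GINS4 were nearly level, with FPKM of 4.35 and 4.29, whereas GINS2 was 2.08 times GINS4 in the other library. Of the exon length of GINS4, 23.6% is shared with an antisense gene.

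**Figure D3:**
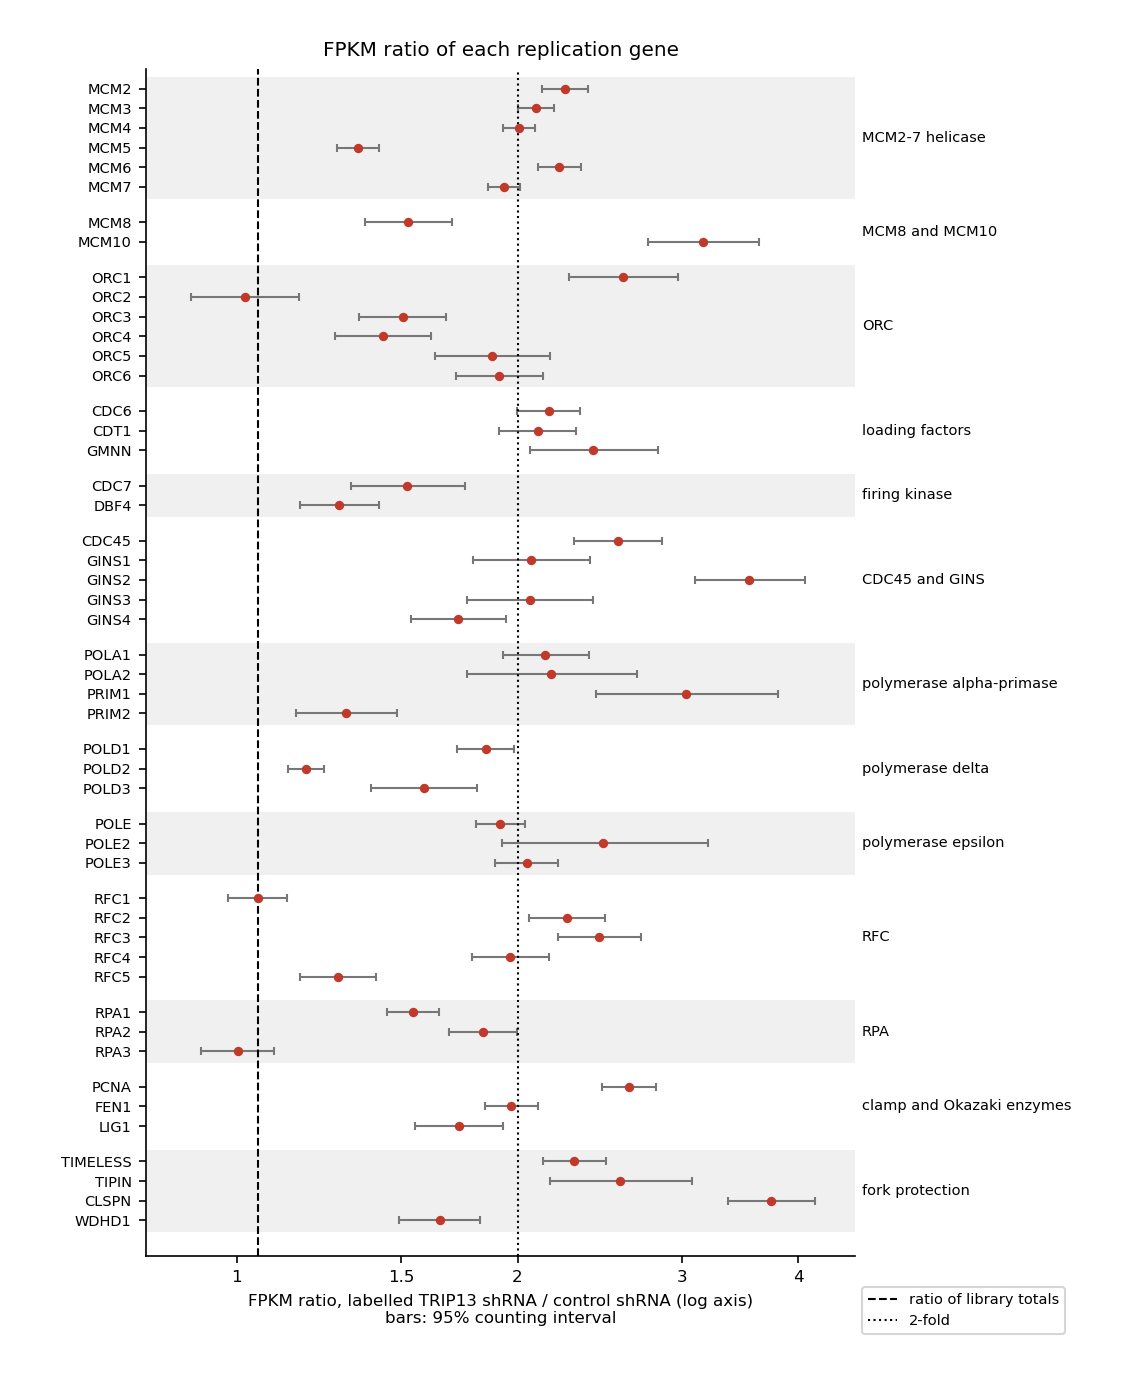
FPKM ratio of each replication gene, library labelled TRIP13 shRNA over control (log axis), grouped by complex; bars are 95% counting intervals from the recovered reads and cover counting error only. The dashed line is the ratio of library totals (1.05) and the dotted line 2-fold; 46 of 49 intervals lie to the right of the dashed line.

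The polymerases held the widest spread of levels, from POLA2 at 1.20 FPKM to POLD2 at 50.6 FPKM in the control library. In polymerase alpha-primase, the primase subunits differed: PRIM1, the catalytic one, stood at 6.92 against 2.29 FPKM (ratio 3.03, 2.43 to 3.80), and PRIM2, its iron-sulfur partner, at 6.48 against 4.94 (ratio 1.31, 1.16 to 1.49). PRIM1 was thus 0.463 times the FPKM of PRIM2 in the control library and 1.07 times in the other. The catalytic POLA1 (9.04 against 4.22 FPKM, ratio 2.14) and the accessory POLA2 (2.60 against 1.20, ratio 2.17) lay between them. POLA2 and PRIM1 share 35.1% and 21.6% of their exon length with other annotated genes on the same strand, which even stranded counting could not separate.

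Polymerase delta, the main lagging-strand enzyme, differed least of the polymerases, with a median log2 ratio of 0.54 and 0 of 3 members past the 2-fold rule. Its catalytic POLD1 stood at 23.1 against 12.5 FPKM (ratio 1.85), POLD3 at 5.62 against 3.54 (ratio 1.59) and POLD2 at 60.0 against 50.6 (ratio 1.19, 1.14 to 1.24). In polymerase epsilon, the main leading-strand enzyme, the 3 members had overlapping intervals and a further subunit lay below them. POLE stood at 9.94 against 5.18 FPKM (ratio 1.92), POLE2 at 3.84 against 1.55 (ratio 2.47) and POLE3 at 39.5 against 19.3 (ratio 2.05). POLE4, the histone-fold partner of POLE3 and not among the 49 members, stood at 30.2 against 26.5 FPKM (ratio 1.14, 1.05 to 1.24), below the intervals of the other 3. All 3 pairs of intervals among the members overlapped, although POLE3, a histone-fold subunit also found in chromatin remodellers, was 3.72 times the FPKM of POLE in the control library and 3.97 times in the other. POLE3 was the closest member below the 2-fold rule, and 0 of the 3 epsilon members passed it.

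RFC, the clamp loader, split by subunit. RFC3 stood at 23.3 against 9.52 FPKM (ratio 2.45, 2.21 to 2.71), RFC2 at 33.5 against 14.8 (ratio 2.26) and RFC4 at 22.1 against 11.3 (ratio 1.96). RFC5 stood at 16.0 against 12.5 FPKM (ratio 1.28), and RFC1, the large subunit that is replaced by others in alternative loaders, at 11.6 against 11.0 (ratio 1.05, 0.979 to 1.13). The 5 subunits spanned 1.56-fold in FPKM in the control library and 2.88-fold in the other, and 8 of 10 pairs of intervals were apart. PCNA, the clamp they load, stood at 111 against 42.1 FPKM (ratio 2.63, 2.46 to 2.81).

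Of the enzymes that finish Okazaki fragments, the flap nuclease FEN1 stood at 57.2 against 29 FPKM (ratio 1.97, 1.85 to 2.10). The ligase LIG1 stood at 7.19 against 4.15 FPKM (ratio 1.73, 1.55 to 1.93). Neither passed the 2-fold rule, in contrast to PCNA. RPA, the trimer that coats single-stranded DNA, was uneven: all 3 pairs of intervals were apart. RPA2 stood at 40.6 against 22.1 FPKM (ratio 1.84, 1.69 to 2.0), RPA1 at 23.2 against 15.0 (ratio 1.54) and RPA3 at 15.1 in both libraries, a ratio of 1.0 (0.915 to 1.10). RPA1 and RPA3 were level in the control library, but not in the other.

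Genes of fork protection and checkpoint signalling had the highest median log2 ratio of the complexes with at least 3 members, at 1.13, and 3 of 4 passed the 2-fold rule. CLSPN (claspin), which relays the ATR signal to CHK1, stood at 15.3 against 4.10 FPKM (ratio 3.74, 3.36 to 4.17). TIMELESS and its partner TIPIN, which travel with the helicase, stood at 19.1 against 8.29 and 8.78 against 3.41 FPKM, with overlapping ratios of 2.30 (2.13 to 2.49) and 2.58 (2.17 to 3.08). WDHD1, which couples polymerase alpha to the helicase, stood at 8.53 against 5.17 FPKM (ratio 1.65, 1.49 to 1.82), below the other 3. TIPIN shares 21.0% of its exon length with another annotated gene.

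Across the 49 members, the order of levels was much alike in both libraries (Spearman rho 0.93). The FPKM ratio had a rho of -0.18 with the control FPKM, which is its own denominator, so counting error alone pushes this value below 0. Its rho with gene length was -0.39, with no value over all compared genes to set beside it. Both describe genes of the same pair of libraries. The members lie on 20 chromosomes. MCM2, GINS4, POLA2, PRIM1 and TIPIN have over 20% of exon length in common with further genes, and 14 of the other 44 passed the 2-fold rule, their median log2 ratio being 0.86. By complex, the median log2 ratio was 1.01 for MCM2 to MCM7, 1.03 for the loading factors, 0.87 for CDC45 and GINS, 0.83 for polymerase alpha-primase, 0.92 for polymerase epsilon, 0.92 for RFC, 0.60 for RPA and 0.95 for PCNA, FEN1 and LIG1.

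A further list held replication genes that are not members, including the small subunits POLD4 and POLE4 of the polymerases above. Of its 58 genes, 55 were compared (RNASEH2A, RNASEH2B and TOP3B were below the filter), 9 were at least 2-fold higher, 0 at least 2-fold lower and 12 below 0, with a median log2 ratio of 0.49; with the median ratio of 1 the count was 6. Among 14 regulators of licensing and firing, 2 passed: CDC25A, the phosphatase that activates CDK2 (12.7 against 3.57 FPKM), and DTL, which marks CDT1 for degradation (11.7 against 4.58). KAT7, a histone acetylase of licensing, stood at 4.43 against 4.30 FPKM and MTBP, a firing factor, at 2.34 against 1.85. Among 6 genes of clamp loading and unloading, PCLAF (9.44 against 3.69 FPKM) and DSCC1 (12 against 5.03) passed, while CHTF18 (6.15 against 5.70) and CHTF8 (32.8 against 30.1) did not; PCLAF shares 28.8% of its exons with a same-strand gene. Of 11 genes of chromatin assembly at forks, 4 passed (2 with the median ratio of 1) and all lay above 0. UHRF1, which guides DNA methylation after the fork, stood at 50.3 against 16.4 FPKM, and the histone chaperone ASF1B at 56.2 against 23.8. SSRP1 (44.4 against 35.3 FPKM) and MMS22L (1.97 against 1.14) were at the low end by the log2 ratio. For MMS22L this place rests on the added 1 FPKM. Its FPKM ratio was 1.73 (1.54 to 1.93), against 1.26 for SSRP1 and 1.46 for NASP of the same list.

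In the list of small polymerase subunits, flap and primer enzymes, 6 of the 8 compared genes lay above 0. The 2 below 0 were POLD4 and POLDIP3, the latter not itself a polymerase subunit. EXO1, a nuclease, stood at 10.8 against 3.93 FPKM and DNA2, a nuclease-helicase, at 5.28 against 2.76, while POLD4, the smallest subunit of polymerase delta, was lower at 9.46 against 13.3 FPKM (21.3% of its exons shared) and POLDIP3 stood at 18.5 against 20.6. TOP3A (10.2 against 5.39 FPKM) and TOP2A (87 against 56.0) were higher than in the control library, and the housekeeping topoisomerases TOP1 (50.1 against 65.2) and TOP2B (21.1 against 27.0) lower. Among 12 genes of fork restart and translesion synthesis the median was -0.02, with 8 below 0 and 0 past 2-fold in either direction. In that list POLH stood at 8.72 against 5.0 FPKM and RAD18 at 7.53 against 5.05, whereas POLI stood at 1.54 against 2.22 and SHPRH at 0.913 against 1.5.

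Beside the members' 17 of 49 and median of 0.87, neighbouring lists gave the following values, and no difference between lists was tested. Genes of dNTP synthesis had 5 of 12 at least 2-fold higher and a median log2 ratio of 0.97, from CMPK1 (38.9 against 35 FPKM) and RRM2B (15.6 against 13.6) to TK1 (114 against 39.0) and RRM2 (46.5 against 13.3, with 20.2% of its exons shared). TYMS and DCTPP1, also among those 5, share 46.6% and 42.1% of their exon length with other annotated genes. Centromere and kinetochore genes had 5 of 24 (2 with the median ratio of 1) and a median of 0.62, with ZWINT and SPC24 at the top (97.5 against 39.4 and 21.1 against 8.29 FPKM) and CENPC (2.90 against 3.08) and MIS18A (18.6 against 17.1) at the bottom. Double-strand break repair genes had 0 of 20, but 4 without a pseudocount, and a median of 0.47, from ATM (2.06 against 3.23 FPKM) and XRCC6 (97 against 112) to BRCA1 (11.1 against 5.37) and BARD1 (5.73 against 2.54). Those 4, BRCA1, BARD1, RAD51C and RAD51D, had FPKM ratios of 2.06, 2.25, 2.06 and 2.39; the last pair falls outside the rule for named genes and was chosen after its values were seen.

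**Figure D4:**
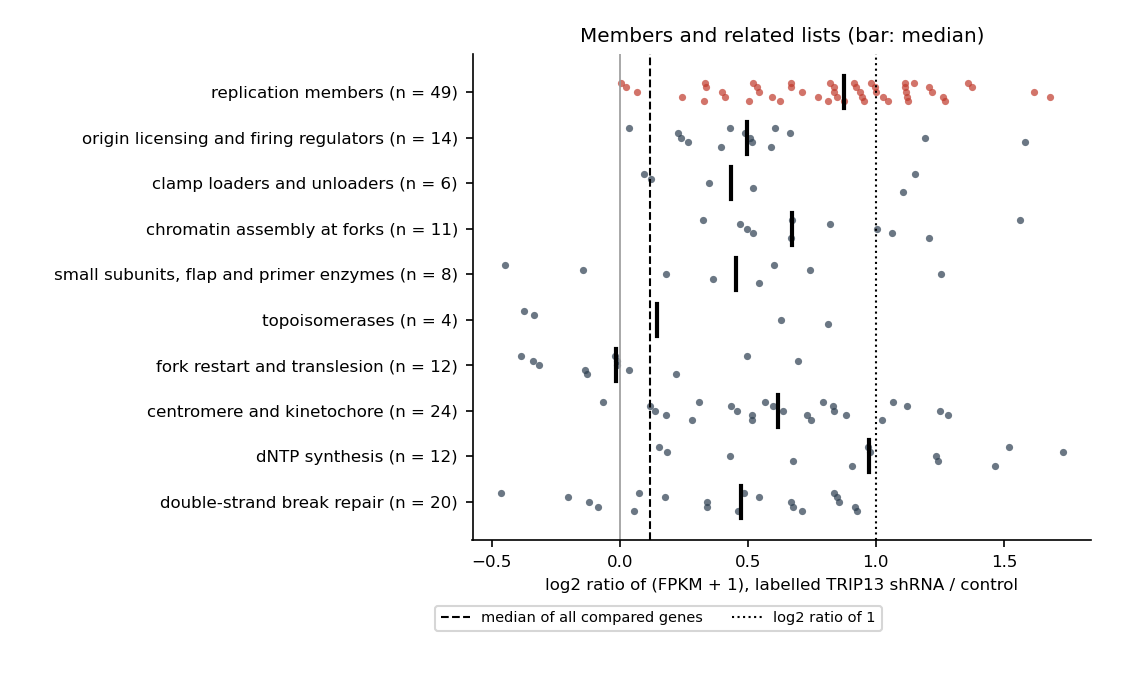
Log2 ratio of (FPKM + 1), library labelled TRIP13 shRNA over control, of each compared gene (points) in the replication members and 9 related lists; the thick bar is the list median. The dashed line is the median of all compared genes (0.12) and the dotted line a log2 ratio of 1; the members' median is 0.87, that of dNTP synthesis 0.97 and that of fork restart and translesion -0.02.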

How the data were processed

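The authors deposited FPKM values, fragments per kilobase of exon and per unit of a library total, for both libraries. Per the submitters' processing notes, the tools were HISAT2 2.0.5, featureCounts 1.5.0-p3 and edgeR and the build hg38, with no roles or settings; the strand setting is not given in the sources used here. Positions of 58735 genes equalled those of GENCODE 29. FPKM times gene length was a whole multiple of 1 step within 0.001 of a read for 100% of values, with the same step in both libraries, so the FPKM ratio equals the ratio of reads and carries the depth ratio. Exact (Clopper-Pearson) 95% counting intervals come from those reads, with 1 library per group, and leave out all but counting error. They also treat each read as a separate molecule, although no molecular identifiers tell PCR copies from molecules. Genes were compared with a pseudocount of 1 FPKM. With 1 library per group no test was made. The members and all lists were chosen with earlier results of these data known. Named genes were by rule all members, TRIP13 and the 2 highest and 2 lowest of each list. TYMS, DCTPP1 and OIP5 were named later for their shared exons, and NASP for its FPKM ratio. Promoter windows printed were those of the 2 highest and 2 lowest members with a window, plus 1 added later. Alternatives were other pseudocounts, filters and scalings. Reading of the values was tested on simulated data. Values were computed in Python 3.11.15 with pandas 2.3.3 and numpy 2.4.6, intervals with scipy 1.17.1, and figures with matplotlib 3.10.9.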

Additional observations from a re-analysis of the deposited data

How the results depend on the processing

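The main limit is 1 library per group, which leaves the spread between cultures unknown. No paired analysis was possible because there was only 1 library in each group. Of 11 alternatives, 2 without a pseudocount were chosen after seeing the data. The count of members at least 2-fold higher was 17; it was 4 with a pseudocount of 5 FPKM, which shrinks every ratio by construction, 9 with the median ratio of all genes set to 1, and 14 to 24 otherwise. The count at least 2-fold lower was 0 throughout. The member median was 0.87 and moved to 0.61 with the pseudocount of 5 FPKM; elsewhere it lay between 0.76 and 0.98. Setting the median ratio to 1 and TPM each shifted the median of all genes from 0.12 to 0.00 and -0.01, and the members' median stood 0.76 and 0.86 above it. Over all compared genes the split was 232 higher to 447 lower, 178 to 513 with own totals, 139 to 568 with the median ratio of 1 and 175 to 519 without mitochondrial and the 50 most abundant genes in the total. With TPM it was 277 to 956, over a larger set of 12183 genes that passed the filter on that scale. ORC2, RFC1 and RPA3 lay below 0 under each of these scalings, TPM included (-0.13 at the lowest, RPA3); the other 46 members stayed above 0 under every alternative. Among the related lists, double-strand break repair had 0 genes at least 2-fold higher, but 4 with a pseudocount of 0.1 FPKM, with 5 added reads and with no pseudocount, and 2 with no pseudocount and own totals. The log2 ratio of TRIP13 ranged from 0.74 to 0.96.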
